A study of Mus musculus with 4 samples.

Results

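Resting OL-like tumor cells are cells of MYCN-driven mouse high-grade gliomas that carried the tumor transgene and RNA of the oligodendrocytic lineage (OL) but RNA of at most 1 gene from each of 2 short lists of cell division genes. They were selected barcode by barcode in scRNA seq (sequencing of RNA from single cells) of 4 tumors, in which each captured mRNA molecule is counted once through a unique molecular identifier (UMI). A cell needed 5000 to 40000 UMIs with under 25% of them mitochondrial, at least 2 UMIs of firefly luciferase (FLUC) plus human MYCN, and a UMI of at least 3 of the 6 genes Bcas1, Olig1, Olig2, Sox10, Cldn11 and Cnp. A UMI of no more than 1 of the 4 neuronal genes Stmn2, Neurod1, Stmn3 and Ina was allowed. Among these OL-like cells, the resting ones had UMIs of at most 1 of 9 G2 and mitosis genes (Ccnb1, Cdc20, Ube2c, Cenpf, Cenpe, Plk1, Tpx2, Mki67 and Top2a) and of at most 1 of 7 S phase genes (Rrm2, Pcna, Cdc6, Ccne2, Mcm3, Mcm5 and Uhrf1). The 4 libraries held 11834 barcodes, of which 5129 passed the limits on UMIs and mitochondrial share, 2596 were OL-like and 520 were resting OL-like cells. The other 2076 OL-like cells are called cycling, 332 of them in S phase (at least 2 S phase genes, at most 1 G2 and mitosis gene) and 1744 in G2 and mitosis (at least 2 genes of that list). Both names follow these counts only, and a cell of the G2 and mitosis class could hold any number of S phase genes. As the resting cells were selected on these genes, the levels of the same genes are given as a description and without a test.

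All 4 mice had the genotype hGFAP-cre::TP53Fl/Fl::lsl-MYCN, and tumors were taken from mouse 4 and mouse 5 at 43 days of age (P43) and from mouse 6 and mouse 7 at 70 days (P70). The paper names the tissue as olfactory bulb (OB)/tumor. It describes P43 as early tumor onset and the P70 tumors as further developed, so age and tumor stage go together. Cre under the hGFAP promoter acts in radial glia and their neuronal and glial descendants, so both age groups carry the Trp53 deletion and the active MYCN transgene, and normal glia of the same brain can carry them too. There were no mice without the transgene, each mouse gave 1 library, and no preparation batch is named, so age and library cannot be told apart. Tumors were dissociated with papain and DNase, frozen, thawed and sorted for cells that exclude 7-Aminoactinomycin D. Mouse 4 had 38 resting cells, mouse 5 had 28, mouse 6 had 36 and mouse 7 had 418, so that mouse 7 gave most of the cells while each mouse counts as 1 replicate. The resting cells of mouse 4 summed to 452917 UMIs, those of mouse 5 to 453421, those of mouse 6 to 432381 and those of mouse 7 to 4162222. The libraries shared few cell barcodes, with 15 of 11819 different barcodes present in more than 1 library. Added up over Ddx3y, Eif2s3y, Kdm5d and Uty, Y-linked RNA reached 146 CPM (UMIs of a gene per 1000000 UMIs of a class) in the resting cells of mouse 4, which is labelled female, and to 0 UMIs in those of mouse 5, which is labelled male (0 UMIs allow up to 6.62 CPM). The resting cells of mouse 6 (labelled male, 123 CPM) and of mouse 7 (labelled female, 0 UMIs, up to 0.721 CPM) matched their labels. Sex was therefore not used, and as both doubtful libraries are of P43, a mix-up between them would not alter the age groups. Trp53 mRNA was not used as a check of the deletion, because 3′ tags lie outside the deleted part of the gene.

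Oligodendrocytes arise from precursor cells that divide, pass through a premyelinating stage, leave the cell cycle and then switch on the genes for myelin, the lipid-rich sheath that they wrap around axons. Myelin genes encode structural proteins of the sheath (Mbp, Mog, Mag, Mobp), other membrane proteins (Mal, Opalin) and enzymes that serve its lipids (Ugt8a, Fa2h, Aspa). MYC proteins drive growth and ribosome synthesis and are known to hold cells in the cycle, and Olig1, Olig2 and Sox10 are transcription factors of the lineage.

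The OL and neuronal genes of the rule are given as a description, since they chose the cells. Over all resting cells of a mouse, Cnp, an enzyme of myelinating membranes, was at 2343 and 2106 CPM in mouse 4 and mouse 5 and at 1751 and 1964 CPM in mouse 6 and mouse 7. Sox10 was at 234, 326, 271 and 262 CPM, Bcas1 at 530, 468, 668 and 646 CPM and Olig1 at 415, 454, 250 and 352 CPM in the same order of mice. The 6 OL genes of the rule were all detected in each mouse, and all 6 had a UMI in 17, 11, 12 and 202 of the cells. Because a 3′ tag is counted once per molecule, CPM values are not divided by gene length. Summed over the 4 neuronal genes, the resting cells held 8.83, 24.3, 39.3 and 42.0 CPM, in cells that the rule had limited to 1 of these genes. FLUC plus human MYCN summed to 786 and 2609 CPM in mice 4 and 5 and 2713 and 1763 CPM in mice 6 and 7, against 986, 3242, 3367 and 1823 CPM in cycling cells of the same mice. Myeloid cells chosen for at most 1 transgene UMI, of which mouse 7 had 8, held 6.11, 13.1, 9.54 and 17.0 CPM at median depths of 6865.5, 9631.5, 6716 and 7128.5 UMIs. Without the limit on the transgene, 1 of 45, 1 of 111, 34 of 846 and 12 of 20 myeloid cells had at least 2 transgene UMIs. In mouse 7 all 12 of these had at least 5 and the 20 myeloid cells had a median of 15, above that of its resting cells, and the source of this RNA was not tested. Among endothelial cells it was 13 of 61 (21.3%), 8 of 137 (5.84%), 5 of 73 (6.85%) and 2 of 5 cells, so in mouse 4 more endothelial than myeloid cells carried transgene RNA. The median resting cell had 6, 19.5, 18 and 12 transgene UMIs, and 6, 1, 0 and 24 resting cells lay at the lower limit of 2 UMIs.

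Resting cells made up 11.5% of 331 OL-like cells in mouse 4 (exact binomial limits at 95% confidence, 8.25 and 15.4%) and 13.7% of 205 in mouse 5 (limits 9.27 and 19.1%). At P70 it was 19.1% of 188 in mouse 6 (limits 13.8 and 25.5%) and 22.3% of 1872 in mouse 7 (limits 20.5 and 24.3%). The mean was 16.7 ± 4.97% (SD, n = 4). The intervals cover counting error only. Both P70 mice lay above both P43 mice, where an exact permutation test of 2 mice against 2 (two-sided) cannot go below p = 0.333. Among cells with 5000 to 15000 UMIs the shares were 20.5%, 29.2%, 27.8% and 29.8%, and mouse 5 of P43 then lay above mouse 6 of P70. The share depends on depth. Resting cells had medians of 8525, 14935, 8945.5 and 9298.5 UMIs and cycling cells of 22884, 26414, 18187.5 and 13528 UMIs, and a cell with fewer UMIs shows fewer cycle genes. Among OL-like cells with 20000 to 40000 UMIs, 2.89%, 6.02%, 10% and 1.75% were resting, against 21.2%, 22.6%, 31.4% and 41.3% at 5000 to 10000 UMIs. With every cell cut down at random to 5000 UMIs ahead of the rule (thinned), 29.6%, 35.5%, 38.5% and 38.9% were resting, and the gap between the ages became smaller. The class is a range cut from a count of genes. Of its members, 7, 2, 7 and 95 had no UMI of any of the 16 cycle genes, and just outside it lay 35, 27, 22 and 288 OL-like cells with 2 genes as the larger of their G2 and mitosis and S phase counts.

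**Figure D1:**
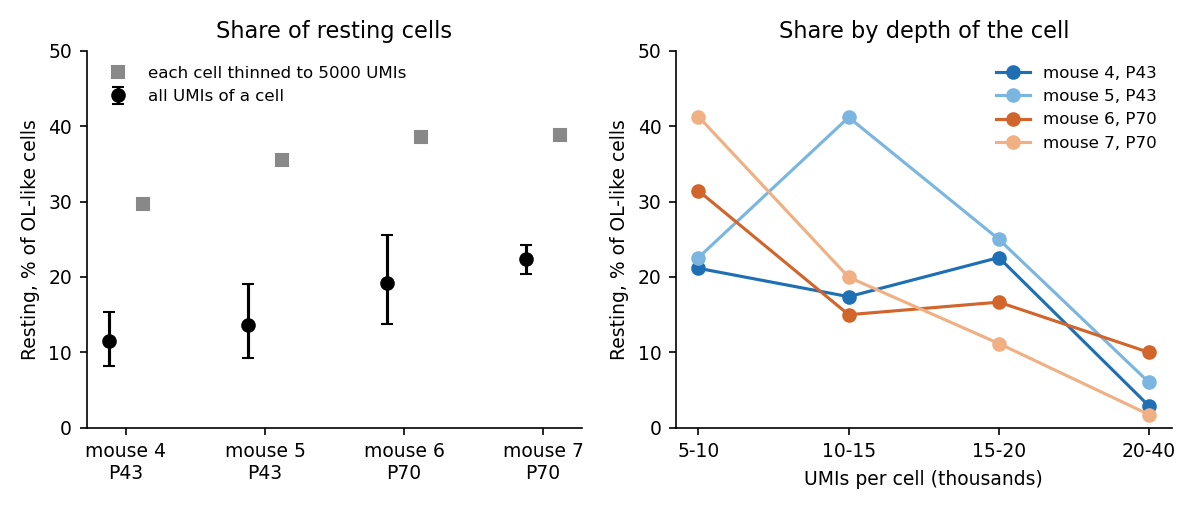
Share of resting cells among OL-like tumor cells, in percent. Left, each mouse with all UMIs of a cell (black circles, bars are 95% exact binomial intervals) and after thinning to 5000 UMIs (grey squares). Right, the same share in 4 bins of UMIs per cell, 1 line per mouse. Thinned values run from 29.6 to 38.9%, above the unthinned 11.5 to 22.3%, and in cells above 20000 UMIs at most 10% were resting.

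Resting cells were compared with cycling cells of the same mice on UMI counts summed per mouse and state, with the mouse as a block (edgeR's quasi-likelihood test, Benjamini-Hochberg adjustment over all genes tested, limit 0.05). The adjusted p-values given for this comparison all come from that fit. Of 10521 genes tested, 710 were higher in resting cells (6.75% of the genes tested) and 697 lower (6.62%). The counts of genes called in the lists below stand against these shares. The genes of the rule were left out of the test. The 710 and the 697 depended strongly on the pairing of both states within a mouse, with 59 higher and 280 lower genes when the block was left out. They also depended on single mice, with 401 higher genes without mouse 4, 456 without mouse 5 and 408 lower genes without mouse 7.

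The myelin genes rose as a group in resting cells. Of 22 genes on the list, 21 passed the filter on low counts and each of these 21 was higher in resting cells, by a median of 1.13 on the log2 scale, against a median of 0.02 over all genes tested. The member below the filter was Klk6, a protease. Mog, a protein of the outer sheath, stood at 192 CPM (87 UMIs) and 331 CPM (150 UMIs) in resting cells of mice 4 and 5 and at 102 CPM (44 UMIs) and 109 CPM (452 UMIs) in those of mice 6 and 7, against 32.5, 46.8, 8.11 and 39.0 CPM in cycling cells. Every resting value lay above every cycling value, and the fitted rise was 2.40 ± 0.23 (log2, SE, adjusted p = 1.4e-06), or 5.29-fold. Most of this RNA lay in the resting cells with at least 4 of 6 late myelin genes, a split that counts Mog itself and is given as a description. These 16, 13, 4 and 130 cells held 368, 582, 710 and 326 CPM of Mog, so that in mouse 6 the value rests on 4 of 36 cells. Resting cells with 2 or 3 late genes held 0, 75.5, 0 and 30.8 CPM and those with at most 1 held 9.55, 0, 7.91 and 1.77 CPM. Mobp, a basic protein of the sheath (chromosome 9, 120149707 to 120181484 of GRCm38), stood at 1058, 1561, 636 and 764 CPM in resting and at 315, 708, 419 and 350 CPM in cycling cells (1.17 ± 0.14, adjusted p = 2.5e-05). It was higher in resting cells of each mouse, while resting cells of mouse 6 held less than cycling cells of mouse 5. Mal was at 1113, 1672, 102 and 337 CPM in resting and 363, 159, 85.8 and 152 CPM in cycling cells (1.72 ± 0.30, adjusted p = 0.00072). The groups of Mal overlapped, because resting cells of mice 6 and 7 held less than cycling cells of mouse 4. Opalin, a membrane glycoprotein of myelinating cells, was at 132, 66.2, 2.31 and 71.1 CPM in resting and 15.4, 0.702, 2.37 and 38.9 CPM in cycling cells (2.21 ± 0.47, adjusted p = 0.0041), without a rise in mouse 6, where the resting cells had 1 UMI. Ptgds, a prostaglandin synthase, rose by 2.24 ± 0.36, Aspa by 1.95 ± 0.30 and the gap junction gene Gjb1 by 1.64 ± 0.26 on the log2 scale. At the lower end stood Trf, which encodes transferrin (0.44 ± 0.14, adjusted p = 0.041), and the chaperone gene Cryab (0.51 ± 0.09, adjusted p = 0.0013). In all 4 mice, 14 of the 21 genes were higher in resting cells. Trf, Gpr37, Fa2h, Qdpr and Ugt8a, which rose by less than the median, did not pass when mouse 4 or when mouse 5 was left out (adjusted p of 0.076 to 0.23).

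**Figure D2:**
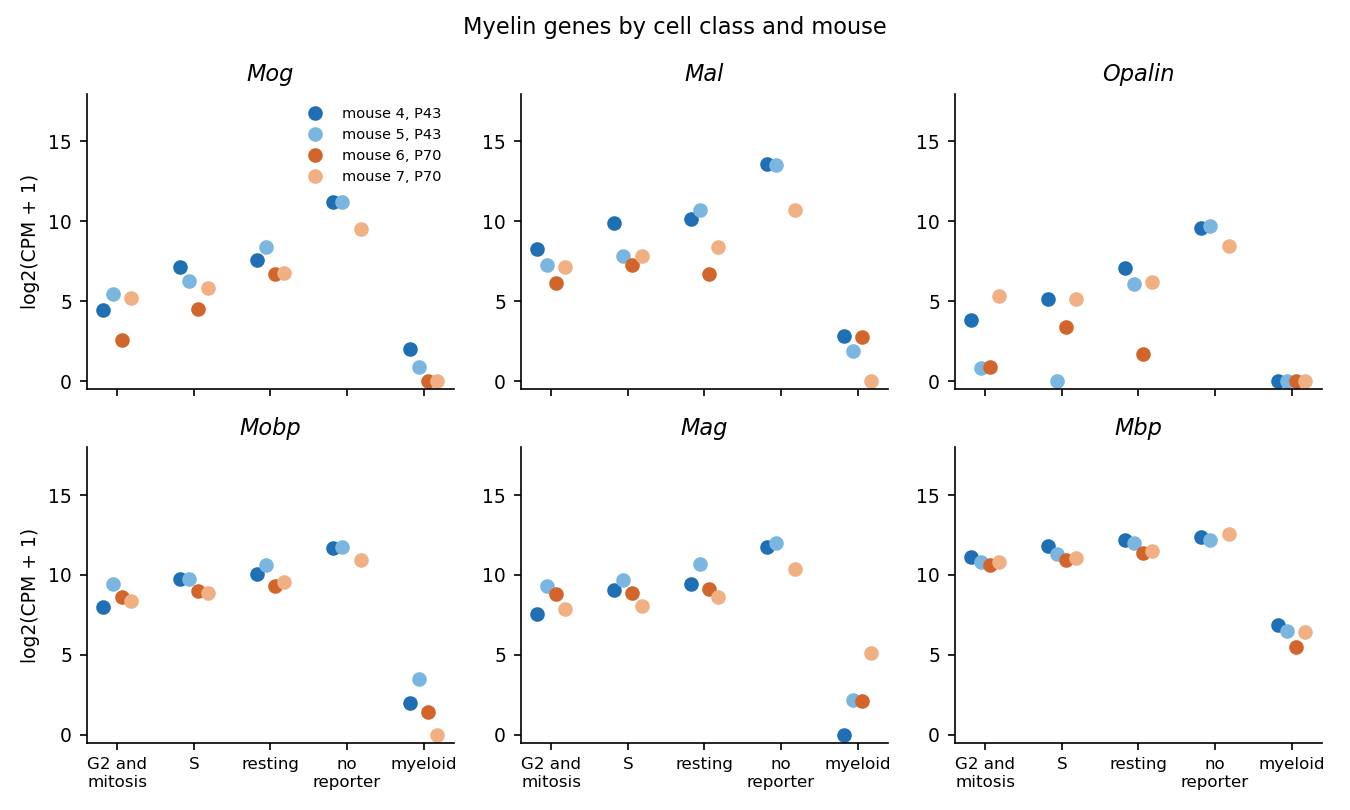
Levels of 6 myelin genes, as log2(CPM + 1) of summed cells per mouse, in OL-like cells in G2 and mitosis, in S phase and resting, in mature oligodendrocytes without transgene UMIs (no reporter) and in myeloid cells. Each point is a mouse, and the no reporter class of mouse 6 is not drawn because it has 2 cells. Resting cells lie above cells in G2 and mitosis for Mog and Mobp in each mouse, and 5 of the 6 genes plotted (all but Mbp) were among those that chose the mature oligodendrocytes.

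The summed level of the 22 myelin genes was higher in resting than in cycling cells of each mouse. Resting cells held 16877 and 19501 CPM in mice 4 and 5 and 8250 and 11440 CPM in mice 6 and 7. Cells in S phase held 12695, 8421, 7012 and 8426 CPM, and cells in G2 and mitosis 6366, 6697, 5532 and 6812 CPM, so in each mouse the order was G2 and mitosis, S phase, resting. This order is one of classes and not of cycle phases, as the G2 and mitosis class held more S phase RNA than the S phase class. In mouse 6 this order rests on the 7 resting cells without any cycle gene, which held 17450 CPM. Its other 29 held 6718 CPM, less than its S phase cells. In mouse 4 the 7 resting cells without any cycle gene held 8345 CPM, less than its S phase cells. Its other 31 held 18257 CPM. Mature oligodendrocytes (MOL) were cells without a transgene UMI and with at least 4 of Mog, Mag, Mal, Ermn, Opalin and Mobp. They were thus chosen by genes of the same list. They needed at least 2000 UMIs, fewer than the 5000 of the tumor cells, so a lack of transgene UMIs says less. MOL held 65503 (96 cells), 71333 (49 cells), 20024 (2 cells) and 33449 CPM (42 cells). Myeloid cells (44, 110, 812 and 8 cells) held 797, 610, 376 and 954 CPM. Against S phase cells alone, 7 of the 21 myelin genes were higher in resting cells (0.731% of 6700 genes tested were higher), with a median of 0.62, and against cells in G2 and mitosis 21 of 21 (7.61% of 10399). With cells thinned to 5000 UMIs before the rule, 21 of 21 were higher (1148 of all 10064 genes tested were higher), with a smaller median of 0.69. Within 5000 to 15000 UMIs 18 were higher (229 of all 5890 genes tested), with a median of 0.88. Without cells that held 2 or more genes of another cell type 19 were higher (474 of all 9775 genes tested). With at least 5 transgene UMIs per cell 16 were higher (462 of all 10447 genes tested), with a median of 1.01.

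Resting cells differed widely among themselves in myelin RNA. After thinning to 5000 UMIs, a resting cell of mouse 4 had UMIs of 3 to 21 myelin genes with a median of 12, one of mouse 5 had 1 to 21 (median 12), one of mouse 6 had 4 to 18 (median 9.5) and one of mouse 7 had 1 to 21 (median 10). The cells were divided by the 6 late genes Mog, Mag, Mal, Ermn, Opalin and Mobp. At least 4 of these had a UMI in 42.1% (16 cells) and 46.4% (13 cells) of resting cells of mice 4 and 5 and in 11.1% (4 cells) and 31.1% (130 cells) of those of mice 6 and 7, against 12.3%, 33.3%, 9.21% and 15.6% of cycling cells. The share was thus higher in resting cells of each mouse, and closest to that of cycling cells in mouse 6. Resting cells with at least 4 late genes held 853, 1505, 1470 and 1077 CPM of the transgene, and those with at most 1 held 554, 2250, 3280 and 2317 CPM. The transgene level was lower in the cells rich in late genes in mice 5, 6 and 7 and higher in mouse 4. Which part of the cells rich in late genes were normal oligodendrocytes with free transgene RNA was not tested. In mouse 5, the 3 resting cells with at most 1 late gene held 7422 CPM of precursor genes, many times the 851 CPM over all its resting cells, and 1929 CPM of Olig1. They are 3 cells of 28 and were singled out after their values were seen.

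Divided by the number of cycle genes, Mog was highest at none or 1 gene in each mouse. It was at 0, 71.7, 454 and 115 CPM in cells with no cycle gene, at 223, 348, 43.2 and 107 CPM with 1 gene of a list at most, at 135, 94.0, 19.0 and 60.8 CPM with 2 and at 18.7, 39.8, 6.56 and 34.6 CPM with 3 or more. In mouse 4 and mouse 5 the level was highest at 1 gene and in mouse 6 and mouse 7 at none. The groups without any cycle gene had 7, 2, 7 and 95 cells, so only that of mouse 7 rests on more than a few cells, and there Mog differed little between none and 1 gene. From none to 3 or more genes, Mal was at 365, 1234, 943 and 285 CPM in mouse 4, at 717, 1734, 264 and 144 CPM in mouse 5, at 373, 56.7, 125 and 80.3 CPM in mouse 6 and at 405, 322, 240 and 134 CPM in mouse 7. Most resting cells of mouse 6, the 29 with 1 gene, thus had the lowest Mal of its OL-like cells.

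**Figure D3:**
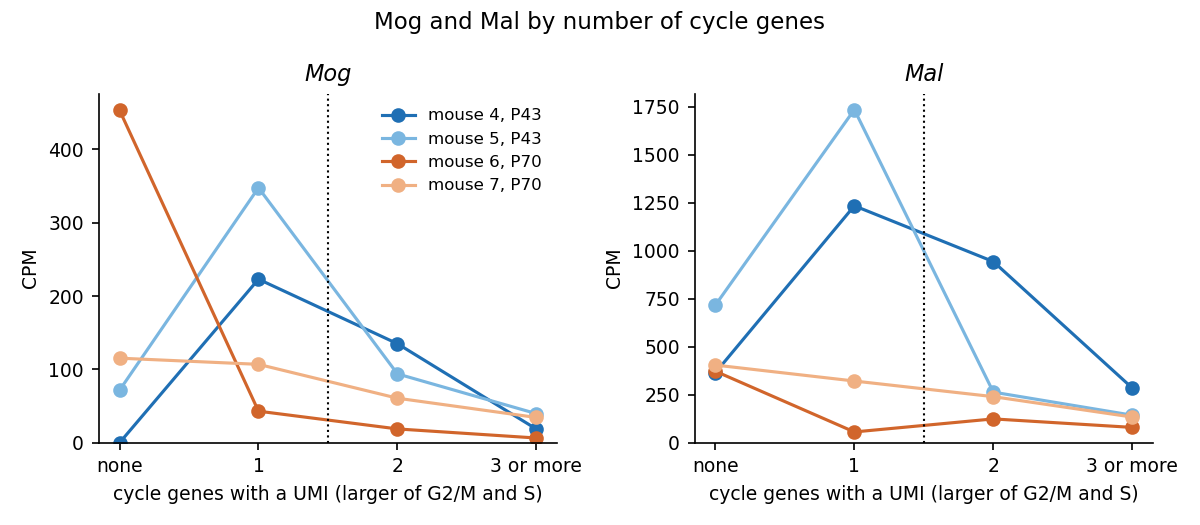
Mog (left) and Mal (right) in OL-like tumor cells by the number of cycle genes with a UMI, as CPM over all cells of a group in a mouse, with the larger of the G2 and mitosis and the S phase count on the x axis. The dotted line is the limit of the rule, with resting cells to its left. Mog is lowest at 3 or more genes except in mouse 4, where it is 0 at none, and Mal is lowest there except in mouse 6, where it is lowest at 1 gene. The points at none rest on 7, 2, 7 and 95 cells.

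Genes of the cycle that the rule did not use followed the rule, as they act in the same process, and are described without being read as support. All 18 further S phase genes and all 20 further G2 and mitosis genes were lower in resting cells, with medians of -1.60 and -4.59. Summed, the 20 G2 and mitosis genes were at 152, 141, 113 and 146 CPM in resting and at 1594, 1436, 1386 and 2011 CPM in cycling cells. The 18 S phase genes were at 426, 371, 426 and 516 CPM in resting cells and at 598, 504, 776 and 835 CPM in S phase cells. They were at 1195, 1264, 1344 and 1747 CPM in cells in G2 and mitosis and at 1139, 1169, 1241 and 1605 CPM in all cycling cells. Resting cells thus kept a good part of this RNA, and its level was highest in the G2 and mitosis class. The 7 S phase genes of the rule were also higher in that class (483, 442, 486 and 677 CPM) than in the S phase class (277, 197, 243 and 316 CPM). Ccnb2, a mitotic cyclin, was at 15.5, 13.2, 11.6 and 15.9 CPM in resting and at 99.1, 74.2, 45.6 and 82.0 CPM in cycling cells. Mcm6, a subunit of the replicative helicase, was at 55.2, 22.1, 27.8 and 50.5 CPM and at 99.8, 77.2, 92.3 and 121 CPM. Outside these lists, the largest falls by the rule for named genes were those of the kinesins Kif4, Kif2c and Kif20a, of Esco2, Pimreg, Depdc1a, Tk1 and Melk and of the histone genes H3c3 and H1f5. The resting cells of all mice together had 1 UMI of Kif4, 2 of Esco2, 3 of Pimreg, 3 of Kif2c, 3 of Depdc1a, 7 of H3c3, 4 of Tk1, 43 of H1f5, 5 of Kif20a and 5 of Melk. Each of the 10 had at least 1043 UMIs in cycling cells, and with so few UMIs in resting cells their folds are not given.

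Promoter sequences are shown for Ccnb2 and Mcm6, as genes that fell with the cycle, and for Opalin, as a myelin gene that rose. They run from 250 bases before to 50 bases after the start of the RefSeq transcript on GRCm38.p6, on the minus strand in all 3 cases, at chr9:70421505-70421804 for Ccnb2, chr1:128359656-128359955 for Mcm6 and chr19:41077064-41077363 for Opalin. Capitals mark TTTGAA or TTCGAA (the CHR element of late cycle genes) and CCAAT boxes in Ccnb2, TTTGGCGC or TTTCCCGC (an E2F site) in Mcm6, and ACAAAG or ACAATG (the core bound by SOX factors) in Opalin, each searched on both strands.
Ccnb2: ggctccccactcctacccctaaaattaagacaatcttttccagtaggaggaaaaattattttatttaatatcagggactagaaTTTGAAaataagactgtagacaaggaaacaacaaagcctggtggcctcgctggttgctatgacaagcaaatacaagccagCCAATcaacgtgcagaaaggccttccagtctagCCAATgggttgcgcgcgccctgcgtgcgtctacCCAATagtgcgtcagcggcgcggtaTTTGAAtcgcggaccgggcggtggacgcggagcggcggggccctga
Mcm6: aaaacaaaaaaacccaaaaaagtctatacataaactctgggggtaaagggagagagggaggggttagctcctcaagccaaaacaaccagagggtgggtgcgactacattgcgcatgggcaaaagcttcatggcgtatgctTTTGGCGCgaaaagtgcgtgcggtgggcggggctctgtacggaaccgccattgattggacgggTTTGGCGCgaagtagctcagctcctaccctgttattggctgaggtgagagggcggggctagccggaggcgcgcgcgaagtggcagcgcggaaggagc
Opalin: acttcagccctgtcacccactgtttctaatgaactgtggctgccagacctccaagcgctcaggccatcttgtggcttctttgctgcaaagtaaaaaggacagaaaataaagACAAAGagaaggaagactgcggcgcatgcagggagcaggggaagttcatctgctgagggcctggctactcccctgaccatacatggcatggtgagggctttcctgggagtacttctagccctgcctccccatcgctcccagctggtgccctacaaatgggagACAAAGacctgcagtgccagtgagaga
Of the 697 genes lower in resting cells, 577 had a promoter in the RefSeq table, and 28.4% of these held a CHR element, 55.1% a CCAAT box and 10.4% an E2F site. Among the 7908 tested genes with a promoter that were not lower, the shares were 12.2%, 38.8% and 2.90%, and among all 27025 RefSeq promoters they were 19.4%, 37.9% and 1.63%. The 697 include all 18 further S phase genes and all 20 further G2 and mitosis genes, which followed the selection of the cells. Larger shares of elements of cycle genes thus follow from the rule too, and are described without being read as support. The genes of the rule itself had a CHR element in 6 of 8 G2 and mitosis promoters and an E2F site in 3 of 6 S phase promoters. The E-box CACGTG, which MYC proteins can bind, was in 9.53% of the promoters of lower genes and 10.9% of those of tested genes that were not lower. The SOX core was in 28.8% of all promoters and in 18.6% of those of the genes tested. Shares for the myelin list and for the genes higher in resting cells are not given. Of these, 17 of 22 and 549 of 710 had a promoter in the table, a smaller part than for the lower genes and the genes of the rule. A match is a description of the letters and shows no binding.

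Genes that act at the entry into the cycle were mostly lower in resting cells, with 9 of 14 lower and 2 higher (median -0.94). They act in the same process as the S phase genes of the rule, Ccne2 among them. Their fall is therefore described without being read as support. Ccne1, the cyclin that starts S phase, was at 13.2, 17.6, 30.1 and 13.7 CPM in resting and 31.4, 49.1, 74.7 and 37.5 CPM in cycling cells (-1.39 ± 0.18, adjusted p = 5.1e-05), and the groups did not overlap. Cdc25a (-1.08 ± 0.17) and E2f3 (-0.70 ± 0.17) also fell. Ccnd2 (2.09 ± 0.55, adjusted p = 0.017) and Cdk6 (2.07 ± 0.57, adjusted p = 0.022) rose, from at most 5.41 CPM in cycling cells of any mouse. Neither passed without mouse 5 (adjusted p of 0.077 and 0.060), nor Ccnd2 without mouse 6 (0.11) or Cdk6 without mouse 4 (0.065). Ccnd1, another D cyclin, did not pass. Without mouse 7, whose counts are the largest, 2 of the 14 genes were lower, and E2f3 was not among them (adjusted p = 0.051).

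Of the genes known for cycle exit, 5 of 19 rose and 1 fell (median 0.24). The list summed to 1175, 1427, 918 and 885 CPM in resting and 881, 1431, 771 and 767 CPM in cycling cells, without a rise in mouse 5. It was led by Gadd45g in mouse 4, Cdkn1c in mouse 5 and Cdkn2a in mice 6 and 7, none of them among the 5. Myeloid cells held 1295 CPM or more and endothelial cells 2212 CPM or more, and the part of such RNA in the rises was not tested. The antiproliferative genes Btg1 (0.78 ± 0.15) and Btg2 (0.75 ± 0.22), the stress-induced gene Gadd45b (1.55 ± 0.26), the transcription factor gene Klf4 (1.13 ± 0.21) and Trp53inp1 (1.44 ± 0.40) rose. Without mouse 4, 3 genes rose, with Btg2 (adjusted p = 0.23) and Trp53inp1 (adjusted p = 0.35) no longer past the limit, and Btg2 did not pass without mouse 7 (0.13) nor Trp53inp1 without mouse 5 (0.10). Btg1 was at 66.2, 124, 85.6 and 45.2 CPM in resting and 43.2, 62.7, 38.9 and 31.6 CPM in cycling cells, higher in each mouse with overlapping groups. Cdkn2c, a CDK inhibitor gene, went the other way (-2.70 ± 0.43, adjusted p = 0.00033), with 0, 6.62, 0 and 2.64 CPM in resting and 16.0, 14.5, 9.13 and 18.1 CPM in cycling cells. Cdkn1b, the CDK inhibitor gene with a known role in oligodendrocyte precursors, was at 64.0, 61.8, 50.9 and 39.6 CPM in resting and 47.9, 43.5, 54.7 and 35.9 CPM in cycling cells and did not pass. Of 11 tested p53 target genes, none passed (median 0.25).

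Of 20 nucleolar genes, which make ribosomes, 6 fell, none rose and 14 did not pass (median -0.31). They summed to 6884, 6563, 7998 and 9024 CPM in resting cells and to 9427, 10647, 9572 and 11081 CPM in cycling cells. Each mouse thus had less of this RNA in resting cells. Npm1 fell by 0.44 ± 0.10 and Ncl, nucleolin, by 0.50 ± 0.12 on the log2 scale. In the MYC network, 5 of 13 genes fell, 2 rose and 6 did not pass (median 0.02). Odc1, the entry enzyme of polyamine synthesis and a known MYC target, was at 152, 212, 229 and 191 CPM in resting and 407, 387, 335 and 279 CPM in cycling cells (-0.80 ± 0.13, adjusted p = 0.00048), without overlap. Srm, spermidine synthase, fell by 0.38 ± 0.11, while Mxd4 (0.72 ± 0.11) and Mxd1 (1.08 ± 0.32), whose products oppose MYC, rose. Mxd3, of the same family, fell (adjusted p = 3.6e-06), with 0 UMIs in resting cells of mice 4, 5 and 6 and 2 in those of mouse 7, against 5.89, 8.89, 15.2 and 20.7 CPM in cycling cells. Mxd1 did not pass without mouse 4 (adjusted p = 0.15), mouse 5 (0.18) or mouse 7 (0.22). Without cells holding RNA of other types 1 nucleolar gene fell in place of 6, without mouse 5 it was 3 and without mouse 7 it was 2, where Npm1 did not pass (adjusted p = 0.064). In the MYC network 3 genes fell without mouse 4 or mouse 5 and 2 without mouse 7, and Srm did not pass without mouse 4 (adjusted p = 0.11) or mouse 7 (0.073).

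Markers of earlier stages did not show the pattern of the myelin genes. None of 16 tested premyelinating genes passed (median 0.11), with Myrf, a factor that switches on myelin genes, at 139, 298, 153 and 199 CPM in resting and 126, 227, 163 and 168 CPM in cycling cells. Of 10 tested precursor genes 4 rose (Cspg5, Matn4, Gpr37l1 and Rlbp1, median of the list 0.30), and no gene of the list passed when mouse 5 was left out, the mouse with the 3 cells rich in precursor genes. Without mouse 7 it was 1 gene. Pdgfra, the defining precursor receptor, was at 0, 28.7, 2.31 and 6.25 CPM in resting cells and was not tested at these counts.

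Genes of neural stem cells and Notch signaling rose in 4 of 12 cases (median 0.51). The list summed to 1066, 984, 2232 and 1509 CPM in resting cells. Endothelial cells with at most 1 transgene UMI, of which mouse 7 had 3, held 5582, 6639, 3436 and 7485 CPM. The part of endothelial RNA in these rises was not tested. Fabp7, a fatty acid binding protein of radial glia, was at 280, 318, 446 and 361 CPM in resting and 142, 76.5, 188 and 144 CPM in cycling cells (1.40 ± 0.13, adjusted p = 1.5e-06), and the groups did not overlap. Vim rose by 1.22 ± 0.13, Id2 by 0.92 ± 0.22 and the Notch target Hes5 by 0.67 ± 0.15, where Id2 did not pass without mouse 5 (adjusted p = 0.079) and Hes5 not without mouse 7 (0.11). Of 9 tested astrocyte genes 4 rose (median 0.53), namely Apoe, Aldoc, Cst3 and S100b, of which Apoe is also a gene of myeloid cells and S100b one of oligodendrocytes. The defining astrocyte genes Gfap and Aqp4 were too low to be tested. Apoe was at 285, 390, 858 and 231 CPM in resting and 24.0, 19.7, 164 and 83.4 CPM in cycling cells (2.75 ± 0.30, adjusted p = 6.4e-06), and at 4096 CPM or more in myeloid cells of each mouse. Without cells holding RNA of other types its rise was 2.64.

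Immediate early genes rose in 9 of 15 cases (median 0.74), among them Fos (1.41 ± 0.27), Junb (1.25 ± 0.18), Klf6 (1.20 ± 0.21) and Jun (0.54 ± 0.12). Against S phase cells alone, none of 10 tested passed. Fos was at 234, 46.3, 388 and 294 CPM in resting and 54.3, 51.2, 72.7 and 170 CPM in cycling cells, without a rise in mouse 5. Without mouse 6, 3 immediate early genes were higher and Jun was not among them (adjusted p = 0.070), and without mouse 7 it was 4 genes. Genes of MHC class I and interferon response rose in 5 of 15 cases (median 0.44), with H2-K1 (1.35 ± 0.21), H2-D1 (1.31 ± 0.17) and B2m (0.83 ± 0.17), which together present peptides at the cell surface. H2-D1 was at 144, 35.3, 201 and 66.6 CPM in resting and 39.1, 12.9, 95.6 and 33.1 CPM in cycling cells, higher in each mouse with overlapping groups. Without cells holding RNA of other types, 4 immediate early genes and 3 genes of the MHC and interferon list were higher. Of 16 genes of cholesterol synthesis, which supplies myelin lipid, Hmgcs1 alone passed (0.80 ± 0.16). Of 18 tested hypoxia and glycolysis genes 2 rose and 2 fell (median -0.09), with Ndrg1, which is also an oligodendrocyte gene, up by 1.62 ± 0.24 and Ldha down by 0.52 ± 0.11. Of 12 stress response genes 1 rose and 1 fell (median -0.11). Over all genes tested 6.75% rose and 6.62% fell. The few calls among cholesterol, hypoxia and glycolysis and stress response genes are therefore not read as changes of these lists. Of 10 further neuronal genes Elavl3 (1.17 ± 0.17) and Sox4 (0.46 ± 0.12) rose, Sox4 neither without mouse 5 (adjusted p = 0.075) nor without mouse 6 (0.12), and Elavl3 was also at 577, 647, 214 and 368 CPM in MOL.

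**Figure D4:**
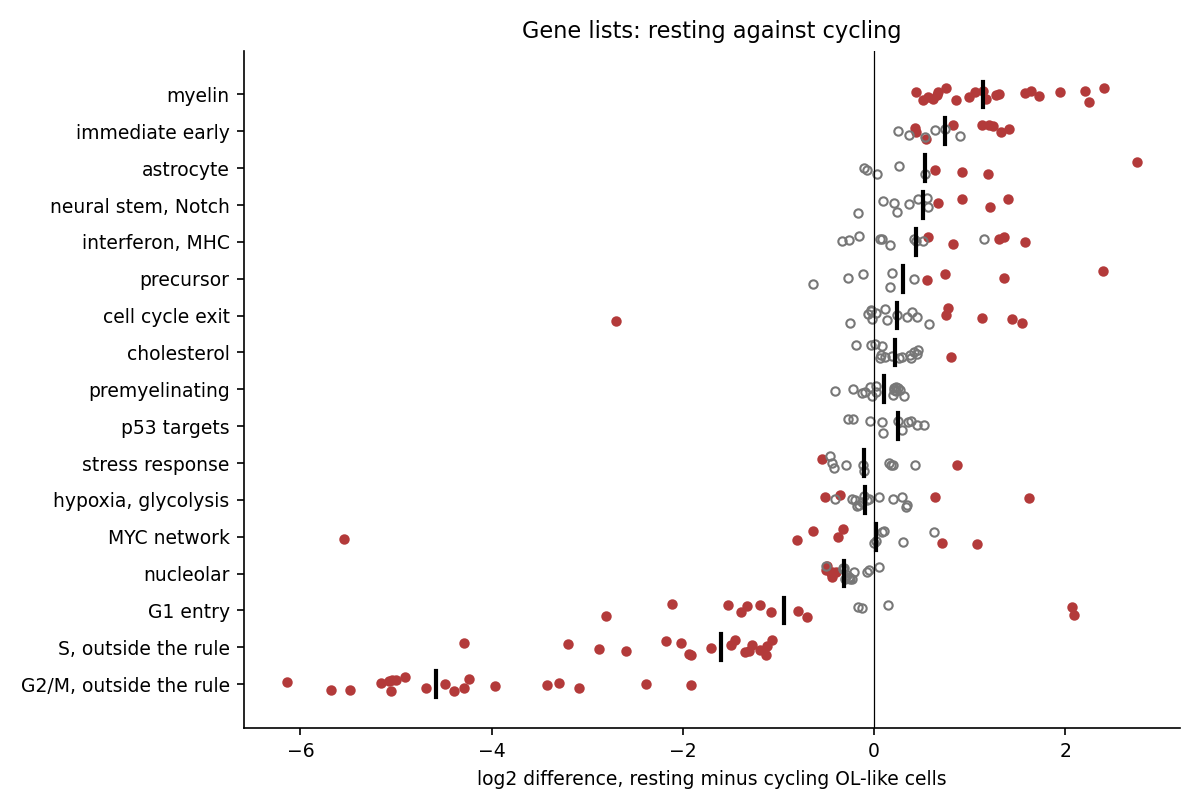
Log2 difference between resting and cycling OL-like tumor cells for each tested gene of 17 lists, with 1 point per gene, filled where the adjusted p is under 0.05. Vertical bars are list medians. All 21 myelin genes lie to the right of 0, and the S phase and G2 and mitosis genes outside the rule lie to the left because they follow the selection of the cells.

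RNA of other cell types was present in part of the resting cells. At least 2 genes of the myeloid, endothelial, mural, lymphoid or neutrophil list had a UMI in 28.9% and 21.4% of resting cells of mice 4 and 5 and in 52.8% and 7.89% of those of mice 6 and 7, against 41.0%, 29.9%, 52.0% and 14.2% of cycling cells, which are deeper. The 12 myeloid genes summed to 17.7, 22.1, 627 and 30.3 CPM in resting cells, with Cd74 leading at 241 CPM in mouse 6, to 50.5, 15.2, 248 and 45.0 CPM in cycling cells and to 33085 CPM or more in myeloid cells. In mouse 6 the resting cells thus held more myeloid RNA than the cycling cells, and also more of the 8 lymphoid genes (180 against 23.0 CPM, led by Ccl5), and the part of this RNA in the rises of Apoe, the MHC genes and the immediate early genes was tested only by the counts without such cells. The 8 endothelial genes summed to 397, 190, 120 and 76.2 CPM in resting cells, led by Itm2a, and to 166, 86.8, 130 and 76.9 CPM in cycling cells. In mouse 4, 9 of the 12 myeloid genes had no UMI in resting cells. Of the genes on these lists that could be tested, none of 3 myeloid genes passed, 1 of 6 endothelial genes rose and 1 of 2 mural genes fell, and no lymphoid, neutrophil or erythroid gene had enough counts. The endothelial gene was Flt1 (2.08 ± 0.62, adjusted p = 0.033), at 119, 35.3, 2.31 and 0.721 CPM. Its adjusted p was 0.60 without mouse 4 and 0.22 without mouse 5. How much of the other rises such RNA carries was not tested beyond the counts given without these cells.

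By the rule for named genes, the largest rises outside the cycle were those of Pdlim2, Cnmd, Apoe, Cdc42ep2, Kcna1, Mog, Stmn4, Nrbp2, Ntrk2 and Ano4. Pdlim2, an adaptor protein of the actin cytoskeleton, was at 291, 97.0, 48.6 and 89.9 CPM in resting and 21.8, 3.04, 2.03 and 12.4 CPM in cycling cells (3.62 ± 0.24, adjusted p = 3.3e-08). The groups did not overlap, and MOL held 653, 590, 107 and 533 CPM. Kcna1, a potassium channel, was at 97.1, 37.5, 34.7 and 82.9 CPM in resting and 6.54, 2.11, 15.2 and 20.7 CPM in cycling cells (2.53 ± 0.32), and Stmn4, which binds tubulin, at 258, 163, 2.31 and 110 CPM and at 34.8, 11.5, 2.03 and 44.6 CPM (2.40 ± 0.31). Both were at 337 CPM or more in MOL of mice 4, 5 and 7. In mouse 6 the resting cells had 1 UMI of Stmn4 and 1 UMI of Cdc42ep2, so the direction of these 2 genes there rests on a single UMI. Ntrk2, the receptor of BDNF, was at 8.83, 39.7, 23.1 and 25.7 CPM in resting and 4.58, 3.98, 0.676 and 7.11 CPM in cycling cells (2.37 ± 0.39). Cnmd rested mostly on mouse 6, with 69.4 CPM in its resting cells (30 UMIs) and 2.21, 15.4 and 15.9 CPM in those of the other mice.

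Between the ages, no gene of resting cells passed the adjusted limit. Of 6404 genes tested over 2 mice against 2 (edgeR's quasi-likelihood test), 0 were higher and 0 lower at P70, while 133 were higher and 248 lower at an unadjusted p under 0.05, and DESeq2 called 7 higher and 13 lower. Without mouse 6 the edgeR counts were 18 higher and 47 lower and without mouse 7 they were 76 and 59, where the lone P70 mouse is assumed to vary like the P43 mice. No myelin gene passed either. Of 21 tested, all had a negative difference with a median of -0.99, against 0.01 over all genes, 15 had an unadjusted p under 0.05 (3.87% of all genes tested were lower at that limit), and in 16 the mice of both ages did not overlap (14.6% of all genes tested were lower without overlap). Their smallest adjusted p was 0.36. Mal differed by -2.68, Ermn by -2.29 and Gsn by -1.80 on the log2 scale. When the cells were thinned to 5000 UMIs before the rule, the median shrank to -0.29, with 7 genes above and 14 below 0. Thinning also enlarged the class of resting cells, and the cause of the smaller median was not tested. With equal numbers of cells per mouse the median was -0.86. In the other direction, Hes5 was at 13.2 and 24.3 CPM in resting cells of the P43 mice and at 206 and 154 CPM at P70 (3.21, unadjusted p = 5.2e-05, adjusted p = 0.32). Vim, at 223, 52.9, 830 and 505 CPM, and Sox6, a factor of precursors, at 22.1, 8.82, 94.8 and 74.2 CPM, were also higher in both P70 mice, with adjusted p of 0.58 and 0.36. Of all genes tested, 20.1% were higher at P70 without overlap, so that such a pattern is common in these libraries. The same order of ages held for Hes5 in cycling cells, at 10.5, 13.6, 136 and 93.1 CPM.

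Whether the rise of the myelin genes in resting cells differed between the ages was tested by an interaction term. The rise was smaller at P70 for 64 genes (0.608% of 10521) and larger for 4 (0.038%). These counts moved with single libraries, to 135 and 111 without mouse 4, 143 and 23 without mouse 5 and 3 and 1 without mouse 7. Of the 21 myelin genes, 8 were among the 64, namely Opalin, Ptgds, Mal, Car2, Tspan2, Fa2h, Ugt8a and Mag, and all 21 had a negative term with a median of -0.79. For Opalin the term was -2.95 (adjusted p = 0.0012) and for Mal -1.60 (adjusted p = 0.014). For each mouse alone, with 5 CPM added, the median difference between resting and cycling cells over the 21 genes was 1.38 and 1.51 in the P43 mice 4 and 5 and 0.23 and 0.79 in the P70 mice 6 and 7, and 21, 21, 14 and 21 genes were higher in resting cells. Both P43 mice thus lay above both P70 mice, with mouse 6 lowest. The count of 8 rested on single libraries, and the genes counted without a mouse were not all among these 8. Without mouse 7 it was 0, without mouse 6 it was 6, and without mouse 4 or mouse 5 it was 13 or 11. With the thinned rule it was 1, with a median of -0.22. The most negative terms of all were those of Ctla2a (-4.76), singled out after its value was seen, and the endothelial gene Flt1 (-4.51), and the summed endothelial RNA of resting cells was also higher in the P43 mice (397 and 190 CPM) than in the P70 mice (120 and 76.2 CPM), whose part in the difference was not tested. Ctla2a did not pass without mouse 4 (adjusted p = 0.21), mouse 6 (0.68) or mouse 7 (0.080), nor Flt1 without mouse 6 (0.34). MOL without transgene numbered 96 and 49 in the P43 mice and 2 and 42 in the P70 mice, and the part of free RNA or misplaced normal cells in the difference was not tested.

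**Figure D5:**
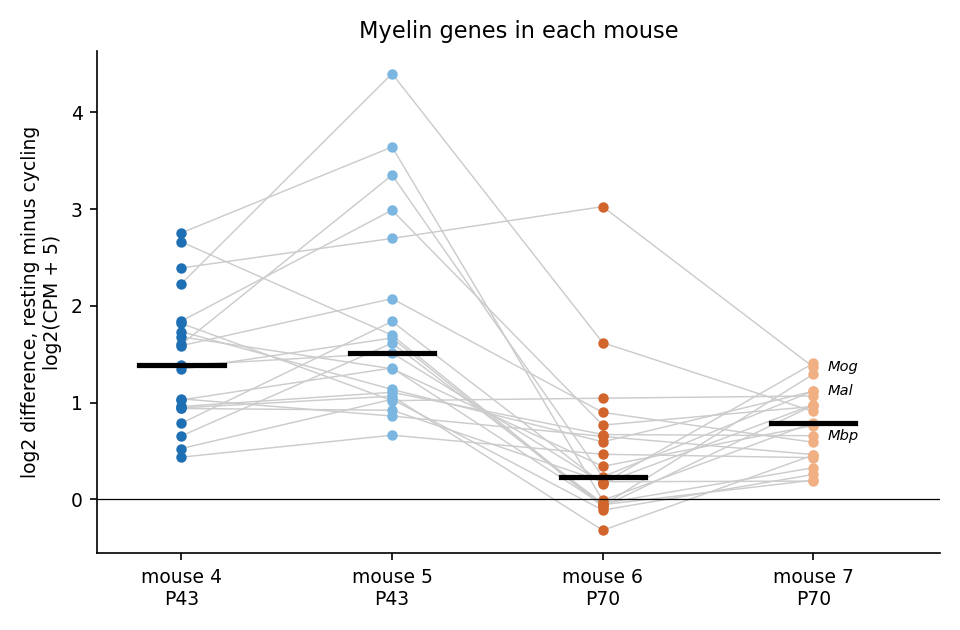
Difference between resting and cycling OL-like tumor cells in each mouse for 21 myelin genes, as the difference of log2(CPM + 5). Points are genes, grey lines join the same gene, 3 of which are named, and black bars are medians (1.38, 1.51, 0.23 and 0.79). In mouse 6, 7 genes lie at or below 0.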

How the data were processed

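Tumors of 4 mice were measured by droplet-based 3′ scRNA seq (Chromium v3.1), each as 1 library. Per the submitters' processing notes, the authors used Cell Ranger 6.0.2 and the genome build mm10, and the deposited values are unnormalized UMI counts of 21861 features, FLUC and human MYCN among them, in each barcode. The study's methods name single-index libraries, the labels dual-index ones. P77 and P92 tumors are not used here. One of the genes on the myelin list as first drawn up is not reported here and was left out of the counts, medians and sums of that list. The cells and gene lists were chosen with earlier results of these data known.

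From the counts, cells were chosen as given in the report, with the UMI limit of 40000 as the only step against doublets (no caller was run). Because mice are the replicates, UMIs were summed per mouse and state and tested in edgeR 4.0.16 (R 4.3.3) with TMM, filterByExpr, the quasi-likelihood test and Benjamini-Hochberg adjustment at 0.05, for resting against cycling cells and the interaction with the mouse as a block, which pairs both states of the same animal, and for age without covariates. The spread between mice sets the p-values, and depth limits single genes to a floor of 3 UMIs (6.62, 6.62, 6.94 and 0.721 CPM in resting cells of mice 4 to 7). On simulated data with 4-fold changes, the age test on 6334 genes recovered 86.0% of 172 changed genes, the state test on 10582 genes 93.8% of 194 and the interaction test on 10591 genes 72.7% of 198, with 16, 8 and 8 unchanged genes called in the same order. Named genes are those of the rule and of the 24 lists, and for each comparison the 10 largest rises and 10 largest falls past the limit with at least 20 CPM in the higher group and 1 direction in all mice, outside the cycle lists. For the state 1040 genes met this rule and for age none. Shares have exact binomial (Clopper-Pearson) intervals from scipy 1.17.1 (Python 3.11.15, numpy 2.4.6, pandas 2.3.3). Alternatives were DESeq2 1.42.0, its size factors in edgeR, no filter on low counts, cells thinned to 5000 UMIs before the rule (seed 11), 5000 to 15000 UMIs, mitochondrial shares under 10%, no cells with 2 or more genes of another cell type, equal cell numbers, no block, other definitions of both states and leaving out each mouse. At least 5 transgene UMIs was added after the data had been seen. Gene positions are from GENCODE vM21 on GRCm38 and promoters from RefSeq on GRCm38.p6, matched by symbol.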

Additional observations from a re-analysis of the deposited data

Results flagged for a closer look

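The interaction of age and state was flagged because its test called genes whose change in resting cells differed between the P43 and P70 libraries. Age and library cannot be told apart here. The rise in resting cells was smaller at P70 for 64 genes and larger for 4. These counts were 15 and 3 with the thinned rule and 21 and 0 with DESeq2. Among the myelin genes the difference between the rises, on the log2 scale, was -2.95 for Opalin, -2.04 for Ptgds, -1.60 for Mal, -1.30 for Car2, -1.12 for Tspan2, -1.12 for Fa2h, -0.97 for Ugt8a and -0.92 for Mag. None of these 8 passed when mouse 7 was left out. Without mouse 6, Car2, Fa2h, Mag and Ugt8a did not pass either.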

How the results depend on the processing

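The counts of genes depended on which cells entered and on single mice, and the causes were not tested. For resting against cycling cells (710 higher, 697 lower), the counts were 1148 and 1126 with cells thinned to 5000 UMIs before the rule, 229 and 225 within 5000 to 15000 UMIs, and 59 and 280 without the replicate block, which ignores the pairing within mice. Against S phase cells alone they were 49 and 6, where fewer genes were tested. None of 10 immediate early, 7 cycle entry, 11 cycle exit and 19 nucleolar genes then passed. Of the neural stem and Notch, the astrocyte and the MHC and interferon lists, 2 of 10, 2 of 8 and 2 of 6 were higher. For cells with no cycle gene against cells with at least 3 the counts were 176 and 342. With at least 5 transgene UMIs 462 genes were higher. Leaving out each mouse in turn gave 401 to 624 higher and 408 to 738 lower genes. For age (0 and 0), DESeq2 gave 7 higher and 13 lower, no filter on low counts 73 and 100, and leaving out a mouse 0 to 76 and 0 to 59. For the interaction (4 larger, 64 smaller), DESeq2 gave 0 and 21, no filter 26 and 110, the thinned rule 15 smaller, and leaving out a mouse 1 to 111 larger and 3 to 143 smaller. The mean share of resting cells (16.7%) moved to 35.6% with the thinned rule, 26.8% within 5000 to 15000 UMIs and 2.97% for cells without any cycle gene, and lay between 14.8 and 18.4% without a mouse in turn. Among the values of single genes named for the resting state, 858 of the combinations of gene and setting kept their direction and their side of the limit and 237 kept the direction only. None of these combinations changed direction. Between 28 and 38 resting cells in mice 4, 5 and 6 limit what can be detected for genes with few UMIs.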

Other observations

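Outside the myelin list, the rise in resting cells was also smaller at P70 for Ctla2a (a difference of -4.76 between the log2 rises), the endothelial gene Flt1 (-4.51), Kcna1 (-2.15), Apoe (-2.02), Stmn4 (-1.99) and Ndrg1 (-1.57), and larger for Ccnd1 (1.57). Without mouse 7, Kcna1 (adjusted p = 0.10), Apoe (0.080), Stmn4 (0.67) and Ndrg1 (0.080) did not pass. Ccnd1, a D cyclin, was at 39.7, 39.7, 185 and 27.6 CPM in resting and 95.7, 84.0, 125 and 23.8 CPM in cycling cells of mice 4 to 7. It was lower in resting cells of both P43 mice and higher in those of both P70 mice, and it did not pass without mouse 6 (adjusted p = 0.085) or without mouse 7 (adjusted p = 0.080).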
